A study of Homo sapiens with 8 samples.

Results

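Transcripts of 10 desmosome genes were measured by RNA sequencing in DU145, an established epithelial prostate carcinoma line derived from a brain metastasis. The genes are JUP, DSP, PKP1, PKP2, PKP3, PKP4, DSG2, DSC2, DSC3 and PERP, matched by their symbols as components of the desmosome. They were chosen with earlier results of these data known, and other desmosomal cadherins, of which 0 were tested, were listed apart. All 10 were found among the 32066 genes of the deposited count table, and all 10 were among the 15665 genes that passed the filter on low counts and were tested. The 8 libraries were 4 from DU145 cells with exogenous SOX11 expression (SOX11 libraries) and 4 from control DU145 cells, all grown in the same medium with serum. SOX11 is an HMG-box transcription factor best known from neural development. The sources used here do not say how SOX11 was introduced, what the control cells carried or whether the cells were a clone or a pool. Neither is it stated that the libraries of a group came from separate cultures, so p-values measure the spread between these libraries, which may be technical.

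Desmosomes are adhesive junctions that tie the keratin filaments of neighbouring epithelial cells together. Desmogleins and desmocollins (here DSG2, DSC2 and DSC3) are the cadherins that meet between the cells. Inside the cell their tails bind the armadillo proteins plakoglobin (JUP) and the plakophilins (PKP1 to PKP3), which recruit desmoplakin (DSP), the plakin that holds the keratin filaments. PKP4 is a relative of the plakophilins that also sits at adherens junctions, and PERP is a tetraspan membrane protein, a target of p53 and p63, needed for desmosome integrity in stratified epithelia. Plakoglobin is shared with adherens junctions, where it can take the place of its relative beta-catenin (CTNNB1) on classical cadherins. The data give RNA and not protein or junctions.

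Shown are the promoters of JUP, which changed most, and of DSG2 and DSC2, cadherins of 1 gene cluster that moved in opposite directions. Each is given as the 250 bases before a RefSeq start. By their GENCODE 29 positions these windows lie partly inside the genes, and that of JUP for the most part, as that gene begins at 41786931. They are RefSeq windows on GRCh38.p14, 5′ to 3′ on the strand of the gene, at chr17:41786712-41786961 (minus strand) for JUP, chr18:31102422-31102671 (minus strand) for DSC2 and chr18:31497927-31498176 (plus strand) for DSG2. Capitals mark a match to ACAAAG, a hexamer of the kind bound by SOX proteins, here on the strand opposite to the gene.
JUP: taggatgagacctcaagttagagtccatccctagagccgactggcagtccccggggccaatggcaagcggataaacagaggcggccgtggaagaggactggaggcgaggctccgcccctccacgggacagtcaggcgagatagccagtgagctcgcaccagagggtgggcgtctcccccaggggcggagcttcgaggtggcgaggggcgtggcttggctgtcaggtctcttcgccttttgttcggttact
DSC2: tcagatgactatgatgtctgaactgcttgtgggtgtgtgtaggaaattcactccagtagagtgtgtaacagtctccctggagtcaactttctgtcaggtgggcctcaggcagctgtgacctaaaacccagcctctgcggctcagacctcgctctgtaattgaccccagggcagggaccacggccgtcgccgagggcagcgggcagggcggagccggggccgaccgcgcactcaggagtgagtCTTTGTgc
DSG2: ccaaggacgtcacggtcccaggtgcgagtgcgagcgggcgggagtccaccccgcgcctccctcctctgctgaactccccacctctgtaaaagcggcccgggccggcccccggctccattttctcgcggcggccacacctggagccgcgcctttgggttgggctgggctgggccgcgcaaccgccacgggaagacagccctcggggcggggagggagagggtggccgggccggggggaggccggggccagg

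The hexamers ACAAAG and ACAATG, which share their first 4 bases, were searched on both strands. The windows ran from 250 bases before to 50 bases after a RefSeq start. RefSeq windows were at hand for 8 of the 10 genes, 11 windows in all, with 2 each for JUP, PKP4 and DSC2. A hexamer was present in 1 of the 11 windows, that of DSC2 shown above, where its last base lies 3 bases before the RefSeq start. By its GENCODE 29 position the gene already covers that base. Of all 35116 windows, 24.5% held one. The letters were not found in the other 10 windows, which says nothing of sites elsewhere. All 11 windows were richer in GC than the median window, with 60.7% to 77.0% GC against 58.7%. They held 15 to 43 CpG dinucleotides, and the median window held 14.

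SOX11 itself had 303 to 317 counts in the SOX11 libraries and 0 counts in all 4 control libraries. Its level of 19.2 ± 0.943 CPM (SD, n = 4), where CPM are counts scaled to library size with TMM factors, was at least 405-fold above 0.0474 CPM, the level that 3 counts over the 4 control libraries would give. The edgeR adjusted p was 2.11e-21. Total counts were 15309037 to 16740516 in SOX11 libraries and 14641250 to 18706095 in control libraries. The epithelial markers EPCAM, CDH1, KRT8 and KRT18 were all expressed, with a summed level of 1073 to 1090 CPM in SOX11 libraries and 1309 to 1559 CPM in control libraries, most of it from KRT8 and KRT18, which fell. EPCAM had 46.7 to 49.0 CPM in SOX11 and 43.5 to 46.1 CPM in control libraries, without overlap, and was not called (log2 fold change 0.10, edgeR adjusted p = 0.142). Blood markers summed to at most 0.946 CPM in any library, and endothelial markers to at most 0.639 CPM. Fibroblast markers, of which 4 of 6 had a count, summed to 5.84 to 7.71 CPM in SOX11 libraries and 3.33 to 5.43 CPM in control libraries, mostly from COL1A1, which rose (log2 fold change 0.72, edgeR adjusted p = 0.000530). Genes of keratinocyte differentiation, of which 2 of 6 had a count, summed to 20.3 to 22.2 CPM in SOX11 and 20.9 to 24.7 CPM in control libraries. Nearly all of this came from KRT10, at 19.8 to 21.8 CPM in SOX11 and 20.6 to 24.3 CPM in control libraries. IVL had at most 0.494 CPM in any library. The part of these genes in the results was not tested.

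SOX11 replicate 1 stood apart. It held 33 genes above 1 CPM that were also more than 3 times as high as in any other library (0.3 CPM added to the other library), and the other 7 libraries held 0 such genes each. Among the 33 were genes of luminal prostate cells. KLK3, which encodes prostate-specific antigen, had 95 counts (5.86 CPM) in SOX11 replicate 1, 0 in the other SOX11 libraries and at most 4 in the control libraries. KLK2, FOLH1, HOXB13 and the epithelial transcription factor gene GRHL2 followed the same pattern, at 9.93, 6.60, 5.18 and 2.47 CPM in that library. In any other library they had at most 0.208, 0.208, 0.139 and 0.139 CPM. For KLK3 and these genes alike, the highest value outside SOX11 replicate 1 was in control replicate 4, from 2 to 4 counts. The log2 fold change of each desmosome gene is therefore given with and without SOX11 replicate 1.

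**Figure D1:**
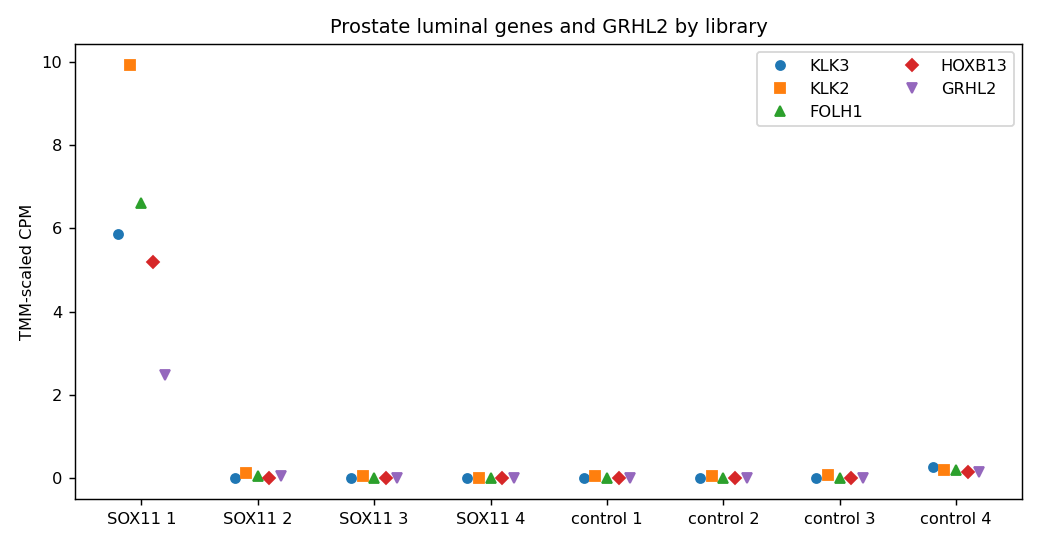
TMM-scaled CPM (vertical axis) of KLK3, KLK2, FOLH1, HOXB13 and GRHL2 in each of the 8 libraries (horizontal axis), 1 symbol per gene. All 5 genes lie between 2.47 and 9.93 CPM in SOX11 replicate 1 and below 0.3 CPM elsewhere.

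In SOX11 libraries plakoglobin RNA was 1.76 times its control level, and the other desmosome genes moved less and in both directions. JUP, DSP and DSC2 rose, PKP2, PKP3, DSG2 and PERP fell, and PKP1, PKP4 and DSC3 did not pass the test. Of the 10 genes, 3 were called higher and 4 lower (edgeR quasi-likelihood test, p adjusted over all tested genes and called under 0.05). Of all tested genes, 10.3% were called higher and 9.67% lower (20.0% in either direction). In 2 genes (JUP and DSP) every SOX11 library lay above every control library, as in 10.6% of all tested genes, and in 4 (PKP2, PKP3, DSG2 and PERP) every SOX11 library lay below, as in 10.4% of all tested genes (21.1% in either direction). The median log2 fold change of the 10 genes was -0.12, and over all tested genes it was 0.0011. Without SOX11 replicate 1 the counts were again 3 higher and 4 lower. In bulk RNA, fewer cells that express a gene and less of its RNA per cell cannot be told apart.

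**Figure D2:**
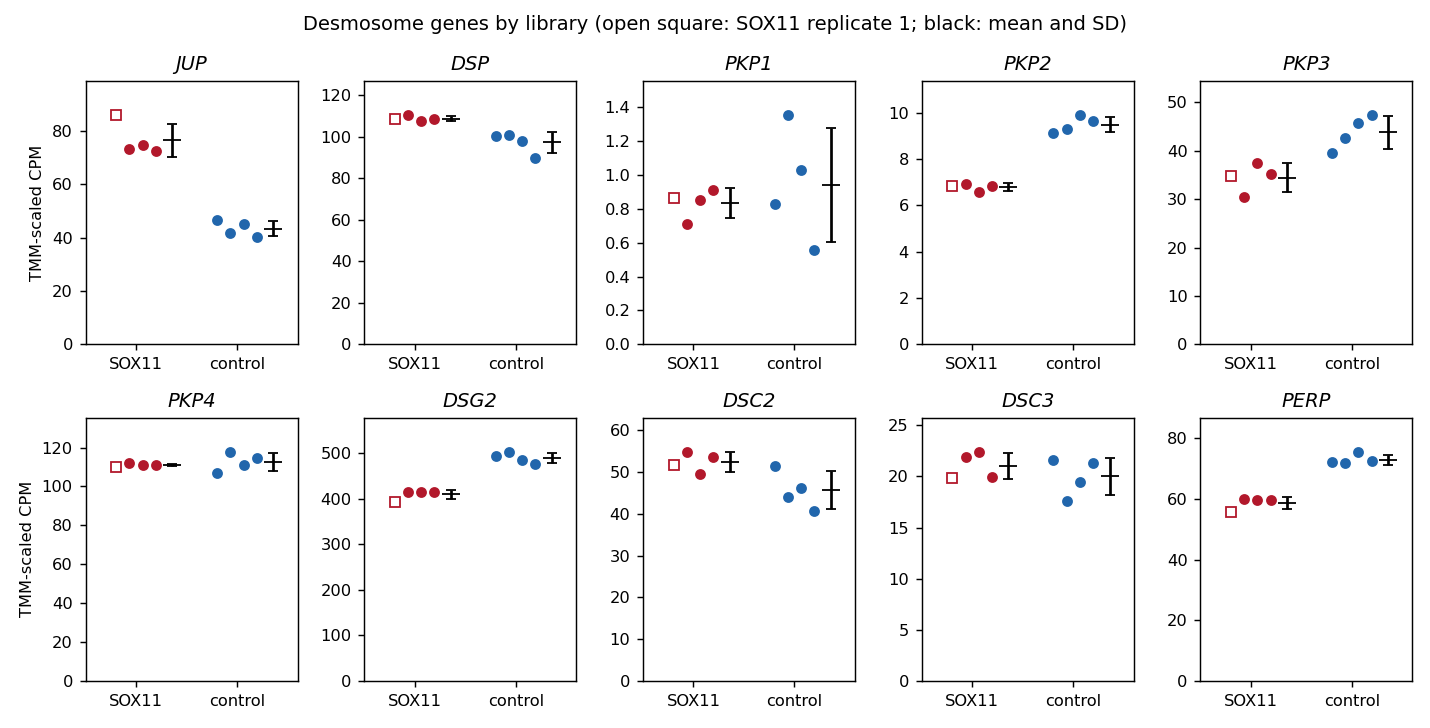
TMM-scaled CPM (vertical axes from 0) of the 10 desmosome genes in the 4 SOX11 (red) and 4 control (blue) libraries. Each point is a library, the open square is SOX11 replicate 1, and the black mark and bar are the mean and SD. JUP lies between 72.5 and 85.9 CPM in SOX11 libraries and between 40.1 and 46.6 CPM in control libraries.

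JUP (ENSG00000173801, chromosome 17, 41754604 to 41786931 of GRCh38, minus strand, as all positions here from GENCODE 29) encodes plakoglobin. It had 85.9, 73.2, 74.6 and 72.5 CPM in SOX11 replicates 1 to 4, against 46.6, 41.9, 45.2 and 40.1 CPM in control replicates 1 to 4. Every SOX11 library was above every control library, and SOX11 replicate 1 was the highest of all. On the log2 scale JUP was higher by 0.82 ± 0.0550 (log2 fold change, SOX11 minus control, ± SE), with an edgeR adjusted p of 1.40e-11 that ranked 30th among all tested genes. A larger change in either direction was found in 262 tested genes, or 1.67%. Without SOX11 replicate 1 the remaining SOX11 libraries averaged 73.4 ± 1.09 CPM (SD, n = 3), and the log2 fold change was 0.76 ± 0.0503 (edgeR adjusted p = 3.77e-11).

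DSP (ENSG00000096696, chromosome 6, 7541575 to 7586717, plus strand) encodes desmoplakin. It had 108, 110, 108 and 109 CPM in SOX11 replicates 1 to 4, against 101, 101, 97.9 and 89.9 CPM in control replicates 1 to 4. The groups did not overlap, but they lay close, and the lowest library was control replicate 4. DSP rose by 0.16 ± 0.0386 on the log2 scale (edgeR adjusted p = 0.00327), a fold of 1.12. Of all tested genes, 34.6% moved by more. Without SOX11 replicate 1 the value was 0.16 ± 0.0417.

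Among the plakophilins, the armadillo proteins that cluster the cadherin tails, PKP2 and PKP3 fell. PKP2 (ENSG00000057294, chromosome 12, 32790745 to 32896840, minus strand), the plakophilin of simple epithelia and heart, had 6.85, 6.92, 6.57 and 6.84 CPM in SOX11 replicates 1 to 4, against 9.13, 9.30, 9.89 and 9.63 CPM in control replicates 1 to 4. The groups did not overlap. The gene had 105 to 117 counts per SOX11 library and 139 to 172 per control library. Its log2 fold change was -0.48 ± 0.0945 (edgeR adjusted p = 0.000368), and -0.49 ± 0.102 without SOX11 replicate 1.

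PKP3 (ENSG00000184363, chromosome 11, 392614 to 404908, plus strand), found in most simple and stratified epithelia, had 34.7, 30.5, 37.4 and 35.3 CPM in SOX11 replicates 1 to 4, against 39.6, 42.6, 45.7 and 47.3 CPM in control replicates 1 to 4. The highest SOX11 library, replicate 3, was just under the lowest control library, replicate 1. Its log2 fold change was -0.34 ± 0.0609 (edgeR adjusted p = 0.000118), and -0.35 ± 0.0684 without SOX11 replicate 1.

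PKP4 (ENSG00000144283, chromosome 2, 158456964 to 158682879, plus strand), the relative of the plakophilins, had higher counts than PKP1, PKP2 and PKP3, without regard to gene length. It had 110 to 112 CPM in SOX11 libraries and 107 to 118 CPM in control libraries, so the SOX11 values lay inside the control range. Its log2 fold change was -0.02 ± 0.0364 (edgeR adjusted p = 0.741). PKP1 (ENSG00000081277, chromosome 1, 201283452 to 201332993, plus strand), the plakophilin of stratified epithelia, was barely expressed. It had 12 to 14 counts per SOX11 library and 8 to 25 per control library, or 0.834 ± 0.0869 CPM in SOX11 and 0.942 ± 0.336 CPM in control libraries (SD, n = 4 each). No difference was detected at this depth, and the SE was wide (log2 fold change -0.21 ± 0.285, edgeR adjusted p = 0.676).

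DSG2 (ENSG00000046604, chromosome 18, 31498043 to 31549008, plus strand), the desmoglein of simple epithelia, had by far the highest counts of the 10 genes. It had 394, 415, 415 and 415 CPM in SOX11 replicates 1 to 4, against 495, 503, 486 and 477 CPM in control replicates 1 to 4. SOX11 replicates 2 to 4 differed by less than 1 CPM, SOX11 replicate 1 was lower, and all 4 were under every control library. The log2 fold change was -0.26 ± 0.0300 (edgeR adjusted p = 1.17e-07), a fold of 0.835, and -0.24 ± 0.0302 without SOX11 replicate 1.

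The desmocollins, the other class of desmosomal cadherin, did not fall. DSC2 (ENSG00000134755, chromosome 18, 31058840 to 31102522, minus strand), the widely expressed desmocollin, had 51.7, 54.8, 49.5 and 53.6 CPM in SOX11 replicates 1 to 4, against 51.5, 43.9, 46.2 and 40.7 CPM in control replicates 1 to 4. Control replicate 1 lay among the SOX11 libraries, so the groups overlapped. The log2 fold change was 0.20 ± 0.0561 (edgeR adjusted p = 0.0106), and 0.21 ± 0.0624 without SOX11 replicate 1 (adjusted p = 0.0255). The call ended without control replicate 4, where the log2 fold change was 0.15 and the adjusted p 0.0600. DSC3 (ENSG00000134762, chromosome 18, 30990008 to 31042815, minus strand), a desmocollin of basal and stratified epithelia, had 19.9, 21.9, 22.4 and 19.9 CPM in SOX11 replicates 1 to 4, against 21.7, 17.6, 19.4 and 21.3 CPM in control replicates 1 to 4. Its groups overlapped, and the log2 fold change of 0.08 ± 0.0709 did not pass the test (edgeR adjusted p = 0.498). Without SOX11 replicate 1, DSC3 (0.10), PKP1 (-0.23) and PKP4 (-0.02) were not called either.

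**Figure D3:**
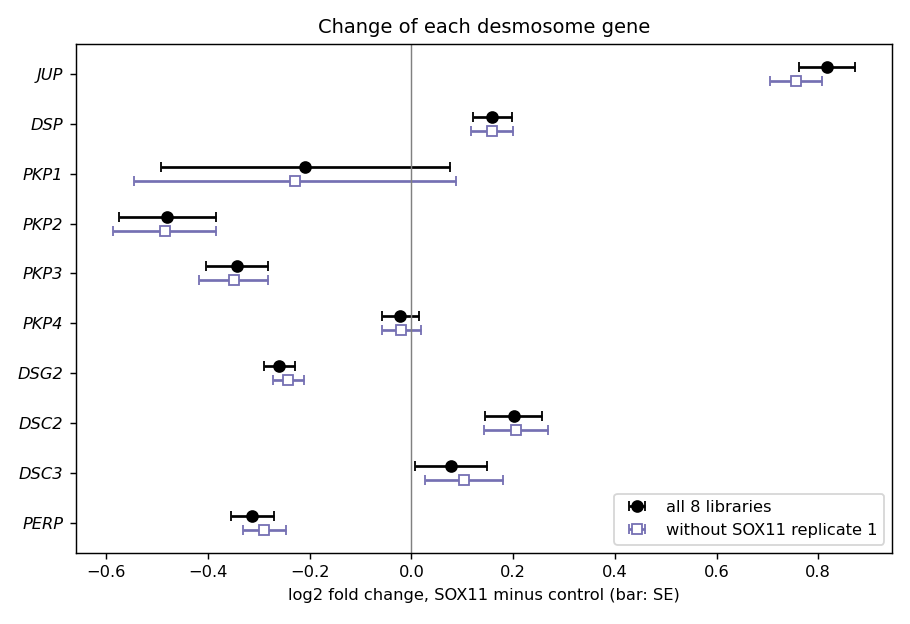
Log2 fold change, SOX11 minus control (horizontal axis), of each desmosome gene with all 8 libraries (filled circles) and without SOX11 replicate 1 (open squares). Bars are the SE. JUP stands at 0.82 and 0.76, and no gene changes sign between the 2 fits.

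DSC3, DSC2 and DSG2 lie in the desmosomal cadherin cluster on chromosome 18 (GRCh38), within 559 kb. DSC3 and DSC2 are neighbours 16.0 kb apart on the minus strand, and DSG2 is at the other end on the plus strand, 396 kb from DSC2. DSG3 and DSC1, which lie between DSC2 and DSG2, had few counts. DSG3, a desmoglein of stratified epithelia, had 0, 0, 1 and 3 counts in SOX11 replicates 1 to 4 and 1, 2, 0 and 1 counts in control replicates 1 to 4. DSC1, a desmocollin of differentiated keratinocytes, had 3, 1, 0 and 0 counts in SOX11 replicates 1 to 4 and 0 in all control libraries. Both were below the filter. Of the 4 other desmosomal cadherins listed, 2 were in the count table and 0 were tested. DSG1 and DSG4 have no value here. Along the cluster, DSC2 was higher, DSG2 was lower and DSC3 was not called.

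**Figure D4:**
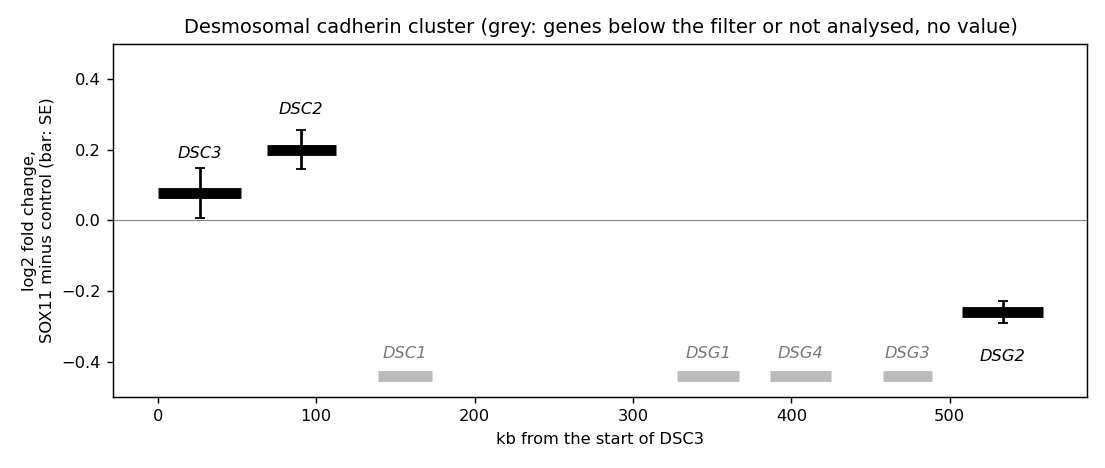
Log2 fold change, SOX11 minus control (vertical axis, bars are the SE), of DSC3, DSC2 and DSG2 (black) over their extent in kb from the start of DSC3 (horizontal axis). Genes without a value are drawn in grey at the foot of the plot; DSC2 stands at 0.20 and DSG2 at -0.26.

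PERP (ENSG00000112378, chromosome 6, 138088505 to 138107511, minus strand) had 55.5, 59.9, 59.5 and 59.7 CPM in SOX11 replicates 1 to 4, against 72.0, 71.8, 75.4 and 72.4 CPM in control replicates 1 to 4. All SOX11 libraries were lower, and SOX11 replicate 1 was the lowest. Its log2 fold change was -0.31 ± 0.0419 (edgeR adjusted p = 1.53e-06), and -0.29 ± 0.0429 without SOX11 replicate 1 (adjusted p = 2.28e-05).

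Levels of different genes were set side by side as CPM per kb of annotated exon, which counts all annotated exons whether or not DU145 uses them. DSG2 led in both groups, with 66.2 ± 1.74 in SOX11 and 79.2 ± 1.77 in control libraries (SD, n = 4 each). JUP was second in SOX11 libraries, at 15.5 ± 1.28, and sixth in control libraries, at 8.79 ± 0.603. Its level was 17.4 in SOX11 replicate 1 and 14.7 to 15.1 in the other SOX11 libraries. In SOX11 libraries the order after JUP was PERP, PKP4, DSP, PKP3, DSC2, DSC3, PKP2 and PKP1, and no neighbours in that order had overlapping ranges. In control libraries the order after DSG2 was PERP, PKP4, PKP3, DSP, JUP, DSC2, DSC3, PKP2 and PKP1. There the ranges of PKP4 and PKP3 overlapped, as did those of DSP and JUP.

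The makeup of the set by this scale is given as a description. JUP made up 11.5% ± 1.05 of the summed level of the 10 genes in SOX11 libraries and 6.02% ± 0.376 in control libraries, and DSG2 made up 49.0% ± 0.911 in SOX11 and 54.3% ± 0.683 in control libraries. The summed level itself was 135 ± 1.23 CPM per kb in SOX11 and 146 ± 1.91 in control libraries. Among the cadherins, DSG2 held 90.2% ± 0.214 in SOX11 and 92.4% ± 0.555 in control libraries. Of the summed level of PKP1, PKP2, PKP3 and their relative PKP4, PKP4 held 53.4% ± 2.01 in SOX11 and 47.5% ± 1.56 in control libraries. PKP3 held 41.6% ± 2.20 in SOX11 and 46.4% ± 1.70 in control libraries. The level of PKP4 itself was 11.7 CPM per kb in SOX11 and 11.8 in control libraries, so its larger share goes with the lower level of PKP3.

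**Figure D5:**
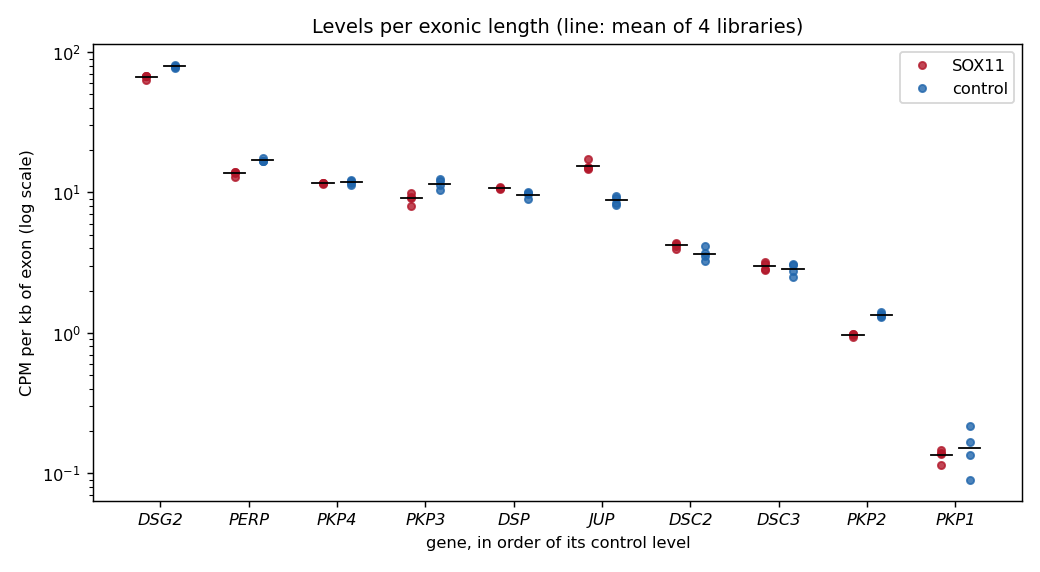
Level of each desmosome gene in CPM per kb of exon (vertical axis, log scale) in SOX11 (red, left) and control (blue, right) libraries, with genes in order of their control mean. Points are libraries and lines are means; JUP averages 15.5 in SOX11 and 8.79 in control libraries, past PERP, PKP4, PKP3 and DSP in the order.

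Ratios within a library, taken as differences of log2 CPM without length scaling, describe how JUP moved relative to its partners. The log2 ratio of JUP to DSP averaged -0.51 ± 0.119 in SOX11 and -1.16 ± 0.0739 in control libraries (SD, n = 4 each). JUP to DSG2 averaged -2.42 ± 0.153 in SOX11 and -3.49 ± 0.0935 in control libraries. JUP to CTNNB1 averaged -1.81 ± 0.110 in SOX11 and -2.58 ± 0.0946 in control libraries. These 3 ratios were higher in 4 of 4 SOX11 libraries than in any control library, by 0.65, 1.07 and 0.78 in the order given. Each had a two-sided exact permutation p of 0.0286, the smallest that 4 against 4 libraries can give (0.0381 adjusted over 4 ratios). The ratios were chosen with earlier results of these data known, and JUP by itself already separated the groups. These p-values therefore add no separate support. The log2 ratio of PKP3 to PKP2 averaged 2.32 ± 0.152 in SOX11 and 2.19 ± 0.0740 in control libraries, and its difference of 0.13 did not pass (exact permutation p = 0.200). The ratios' differences without SOX11 replicate 1 were 0.60 to DSP, 1.00 to DSG2 and 0.72 to CTNNB1.

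CTNNB1, the beta-catenin gene, had 264 to 269 CPM in SOX11 and 254 to 266 CPM in control libraries and was not called (log2 fold change 0.04 ± 0.0305, edgeR adjusted p = 0.429). Among the 14 listed adherens junction genes 11 were tested, of which 4 were higher and 1 lower (all tested genes: 10.3% and 9.67%), with a median log2 fold change of 0.0087. The higher genes were ARVCF (0.65) and CTNND1 (0.35), which encode armadillo proteins of the p120-catenin family, the alpha-catenin gene CTNNA1 (0.21) and AFDN (0.11), which encodes the nectin-binding protein afadin. ARVCF averaged 18.0 ± 0.516 CPM in SOX11 and 11.4 ± 0.598 CPM in control libraries (edgeR adjusted p = 8.53e-08). The P-cadherin gene CDH3 was lower (-0.15, adjusted p = 0.0394), and that call ended with upper quartile scaling (0.0596) and without control replicate 1 (0.103), control replicate 3 (0.1105), SOX11 replicate 1 (0.0649), SOX11 replicate 3 (0.115) or SOX11 replicate 4 (0.105). The AFDN call ended with no filter (0.0730) and without control replicate 2 (0.122) or SOX11 replicate 3 (0.0556). The E-cadherin gene CDH1 had 46.8, 42.3, 31.3 and 35.04 CPM in SOX11 replicates 1 to 4 and 37.3 to 47.2 CPM in control libraries (adjusted p = 0.660).

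Keratins form the filaments that desmoplakin anchors. Of 16 listed keratin genes 9 were tested, of which 4 were lower and 0 higher (all tested genes: 9.67% and 10.3%), with a median log2 fold change of -0.16. At an unadjusted p under 0.05, 1 keratin was higher (KRT86) and 6 were lower, and DESeq2 called 0 higher and 4 lower. KRT19 averaged 121 ± 4.81 CPM in SOX11 and 195 ± 6.69 CPM in control libraries (log2 fold change -0.68 ± 0.0360, edgeR adjusted p = 4.70e-15). KRT8 (-0.51) and KRT18 (-0.42), the keratins of simple epithelia, and KRT7 (-0.16) fell too. KRT8 and KRT18 overlap on opposite strands, and how the counting treated strand is not given in the sources used here. Keratins gained a call as higher without control replicate 3 (KRT4, 0.40) and without SOX11 replicate 4 (KRT86, 0.61), and as lower without control replicate 1 (KRT80, -0.13) and without SOX11 replicate 4 (KRT15, -0.59).

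Plakins are the linker proteins to which DSP belongs. Of 5 others tested, 1 was higher and 2 lower (all tested genes: 10.3% and 9.67%), with a median log2 fold change of -0.17. MACF1, which links actin and microtubules, rose (0.14, edgeR adjusted p = 0.00113), and the periplakin and envoplakin genes PPL (-0.17, adjusted p = 0.0168) and EVPL (-0.17, adjusted p = 0.0220) fell. The PPL call ended without SOX11 replicate 2 (0.05001) or SOX11 replicate 3 (0.0679), and without SOX11 replicate 3 the plectin gene PLEC gained one as lower (-0.29, adjusted p = 0.0338). The EVPL call ended without control replicate 2 (0.0678), control replicate 3 (0.0533), control replicate 4 (0.0800), SOX11 replicate 2 (0.0734) or SOX11 replicate 4 (0.0528).

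Of 17 listed genes of desmosome assembly and turnover 15 were tested, of which 1 was higher and 3 lower, with a median log2 fold change of -0.0018. The 4 of 15 called stand beside 20.0% of all tested genes called in either direction, 10.3% higher and 9.67% lower. At an unadjusted edgeR p under 0.05, 3 of the turnover genes were higher and 3 lower. PRKCA, the protein kinase C alpha gene whose product weakens desmosomal adhesion, averaged 146 ± 5.28 CPM in SOX11 and 125 ± 5.86 CPM in control libraries (log2 fold change 0.22 ± 0.0378, edgeR adjusted p = 7.13e-05). LMO7, which encodes a junction-associated LIM domain protein, averaged 133 ± 10.3 CPM in SOX11 and 178 ± 11.9 CPM in control libraries (-0.42 ± 0.0538, adjusted p = 3.73e-05). The sheddase gene ADAM9 (-0.18) and the flotillin gene FLOT1 (-0.10) were lower. The FLOT1 call ended without control replicate 1 (0.0610), control replicate 3 (0.0841), SOX11 replicate 3 (0.0561) or SOX11 replicate 4 (0.0854). Without SOX11 replicate 2 the SRC kinase gene was called higher (0.14). TP63 and GRHL2 were below the filter.

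The tested genes whose profile over the 8 libraries lay closest to that of JUP, by the root mean square distance of log2 CPM centred on each gene's mean, were PSMG3-AS1 (0.0836), MRC2 (0.0907), CADM4 (0.0908), H2BC21 (0.0921) and ENSG00000255847 (0.0951). Their log2 fold changes were 0.83, 0.76, 0.71, 0.66 and 0.82, which lie near that of JUP because the genes were picked by this distance. Of genes that overlap a desmosome gene and have counts, DSCAS, antisense to DSC2 with 0 shared exonic bases, and the pseudogene RPL7AP22 inside PKP4 were both below the filter, at 0.173 and 0.202 CPM in SOX11 libraries and 0.166 and 0.226 CPM in control libraries.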

How the data were processed

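Poly(A) RNA from 8 DU145 libraries was sequenced after a TruSeq Stranded mRNA preparation, per the labels' protocols. The submitters' processing notes name cutadapt, FastQC, STAR 2.7.0e and the build GRCh38. What each tool did, how reads were counted, whether by strand, and on which annotation, is not given in the sources used here. Raw counts per Ensembl gene, without normalization, are what the authors deposited. Symbols came from a table that matched 32053 of 32066 identifiers, and positions and exonic lengths from GENCODE 29 (GRCh38), which may differ from the annotation counted on.

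Genes were filtered with filterByExpr (minimum count 10), scaled by TMM and tested with edgeR 4.0.16 (robust quasi-likelihood, group as the only term) in R 4.3.3, with Benjamini-Hochberg adjustment over 15665 genes and a threshold of 0.05. Each SE is the absolute log2 fold change over the root of its F value. Log2 CPM used a prior count of 2. Ratios were compared by exact permutation. The floor used for SOX11 covers counting error only, while SDs and SEs include the spread between these libraries. The scripts were tested on simulated data. Alternatives were RLE and upper quartile scaling, no filter, at least 1 CPM in 4 libraries, DESeq2 1.42.0, a replicate block, a prior count of 0.5 for the ratios, and each library left out.

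Within groups, the chi-square per degree of freedom between libraries was 1.39 to 3.01, so no library was a copy of another in its group. Libraries of different groups were not compared in this way. These values cannot tell repeat preparations of the same RNA from separate cultures. The genes, lists and tests were chosen with earlier results of these data known. Named were all 10 desmosome genes, SOX11, up to 4 called genes per list by smallest adjusted p, genes in a ratio, overlapping genes, and the 5 nearest to JUP. The luminal genes, CDH3, EPCAM, COL1A1, PLEC, KRT4, KRT15, KRT80, KRT86, SRC and the genes below the filter were named after their values were seen, as was the rule by which SOX11 replicate 1 stands apart.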

Additional observations from a re-analysis of the deposited data

Results flagged for a closer look

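Among 35 genes, 6 values lay far from the other libraries of their group by Dixon's test over 68 groups of 4 libraries, where chance flags about 1 in 20 groups. Of the 6, 3 were in SOX11 replicate 1. JUP was at 85.9 CPM there, above the 72.5 to 74.6 CPM of the other SOX11 libraries. DSG2 was at 394 CPM, under the 414.8 to 415.3 CPM of the others, and PERP at 55.5 CPM, under 59.5 to 59.9 CPM. The part of the luminal genes in these values was not tested; without that library the log2 fold changes were 0.76, -0.24 and -0.29, and all were called. PERP was at 75.4 CPM in control replicate 3, with 71.8 to 72.4 CPM in the other control libraries. ARVCF was at 17.2 CPM in SOX11 replicate 4 and LMO7 at 148 CPM in SOX11 replicate 2.

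KLK3 and GRHL2 were looked at because they stood out, so the chance rate does not apply to their 4 values. In SOX11 replicate 1 KLK3 was at 5.86 CPM and GRHL2 at 2.47 CPM, against at most 0.0591 CPM in the other SOX11 libraries. In control replicate 4 KLK3 was at 0.277 CPM and GRHL2 at 0.139 CPM, from 4 and 2 counts, with 0 in the other control libraries.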

How the results depend on the processing

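JUP, DSP, PKP2, PKP3, DSG2 and PERP kept their direction and call in all 14 alternatives, with log2 fold changes of 0.76 to 0.85, 0.12 to 0.18, -0.50 to -0.46, -0.39 to -0.29, -0.27 to -0.24 and -0.32 to -0.29. DSC2 kept its call in 13 of 14 and ranged from 0.15 to 0.26 over the fits with a library left out. PKP1 ranged from -0.38 to 0.045 and PKP4 from -0.046 to 0.00055 in those fits, with the sign turned without control replicate 2, and neither was called. The log2 ratio of JUP to DSP differed by 0.60 to 0.68, to DSG2 by 1.00 to 1.11 and to CTNNB1 by 0.72 to 0.81 with a library left out, where 3 against 4 libraries allow no exact permutation p under 0.0571. With a library left out, called desmosome genes were 2 to 3 higher and 4 lower, lower plakins 0 to 2, lower adherens genes 0 to 1 (0 with upper quartile scaling), higher keratins 0 to 1 and higher turnover genes 1 to 2. Over all genes and alternatives, higher calls ran from 1165 (DESeq2) to 1720 (upper quartile scaling) and lower calls from 1221 (without control replicate 2) to 1613 (no filter). With the replicate block there were 1506 higher and 1393 lower, JUP was at 0.82, and no desmosome gene changed its call. Libraries with the same number did not deviate together (correlations of -0.07 to 0.11), and 3 of 8 libraries correlated best with their own number, so the numbers were not read as pairs. Depth limits PKP1, at 8 to 25 counts per library.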
